A study of Drosophila melanogaster with 12 samples.

Results

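The phototransduction cascade of the *Drosophila melanogaster* eye, represented by 10 genes, was followed across development in whole animals: *Galphaq*, *Gbeta76C* and *Ggamma30A* (the G protein), *norpA* (phospholipase C), *trp* and *trpl* (channels), *inaC* and *inaD* (kinase and scaffold), and *Arr1* and *Arr2* (arrestins). They were taken by gene symbol from a table of 14001 genes, where 9 of the 10 stand under their own symbol and *Ggamma30A* was matched by its FlyBase identifier, FBgn0267252. RNA came from whole bodies of 4 groups with 3 libraries each. Resistant adults and resistant third-instar larvae belong to a strain labelled as resistant to avermectins, a class of insecticides that open glutamate-gated chloride channels. Sensitive adults and sensitive third-instar larvae belong to a strain labelled as sensitive, with "wild type" in the treatment field. The labels give no sex, adult age, genotype, eye colour, light regime or number of animals per library, and do not say how resistance was obtained. The groups are called resistant adults, sensitive adults, resistant larvae and sensitive larvae here, and per-library values are in replicate order.

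In the fly eye, light turns rhodopsin into metarhodopsin, which activates a Gq protein. Its alpha subunit switches on phospholipase C, which cleaves phosphatidylinositol bisphosphate in the microvilli of the rhabdomere, and the TRP and TRPL channels then open and let calcium and sodium in. The PDZ scaffold INAD holds TRP, phospholipase C and protein kinase C in one complex, and arrestins bind metarhodopsin and end its activity. The compound eye differentiates during the third larval instar and the pupal stage, while a larva sees with the small Bolwig organs, whose photoreceptors express *Rh5* and *Rh6*.

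The values are FPKM, fragment counts scaled by transcript length and by library size, so levels of different genes can be set beside each other per length. Depth, estimated from the size of 1 read among low values, was 11320000 to 12400000 reads in each library, with 12997 to 13452 genes detected. Of the photoreceptor markers, the rhodopsin genes were as the stage labels imply, whereas *gl* was lower in resistant adults than in resistant larvae, as given below. *ninaE*, the rhodopsin of the outer photoreceptors, stood at 982.79, 659.47 and 859.04 FPKM in resistant adults and at 913.44, 762.50 and 716.23 FPKM in sensitive adults. It was listed at 0 in all 3 resistant larval libraries and stood at 0.48, 0.60 and 0.38 FPKM in sensitive larvae. In a whole-body library, fewer cells of a type and less RNA per cell cannot be told apart. Nothing in the labels says that replicates came from separate cultures, and a p-value here covers only the variation among these libraries, some or all of which may be technical.

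All 10 genes were higher in adults than in larvae of their strain, in every library, but from very different larval levels. Together they took 0.146 to 0.2% of all FPKM in resistant adults and 0.163 to 0.176% in sensitive adults, against 0.0105 to 0.0128% in resistant larvae and 0.00543 to 0.00647% in sensitive larvae. Of these, 6 genes (*trp*, *trpl*, *Gbeta76C*, *Arr2*, *inaC* and *inaD*) had larval means below 1 FPKM in both strains. *Ggamma30A*, *Galphaq*, *Arr1* and, in resistant larvae, *norpA* had larval means above it. Each test below is limma's moderated test on log2(FPKM + 1), with Benjamini-Hochberg adjustment over all genes tested and a threshold of 0.05. A gene was tested where at least 3 libraries of the comparison reached 1 FPKM. Log2 differences are on the log2(FPKM + 1) scale, which understates the change of genes near 0. The ratio of mean FPKM between stages is given for *Galphaq*, *Ggamma30A* and *norpA*, and the FPKM of each library for all 10. For the 6 genes below 1 FPKM in larvae, the size of the log2 difference depends on the added 1. With 0.1 added instead, the strain with the larger stage difference turned for *trpl* and *inaC*.

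**Figure D1:**
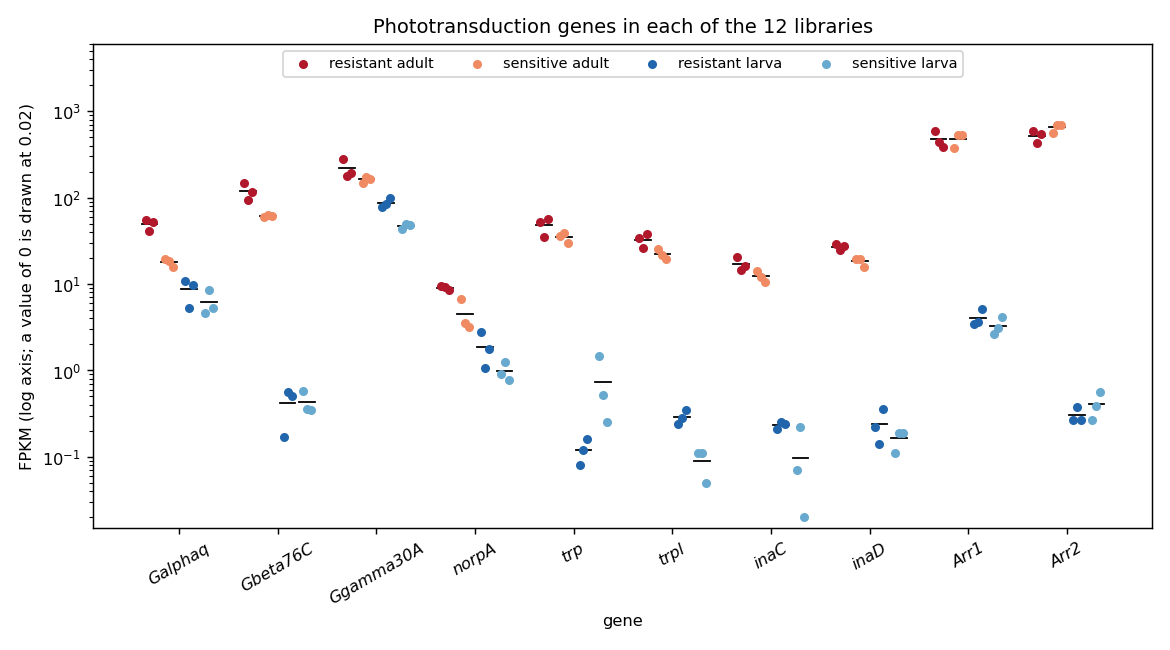
FPKM of the 10 phototransduction genes (log axis) in each library, with points for libraries and bars for group means. For each gene the adult libraries of a strain all lie above its larval libraries, and larval *Ggamma30A* at 43.40 to 98.15 FPKM stands well above the other larval values.

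The alpha subunit gene *Galphaq* (FBgn0004435, chr2R:12612740-12623197, plus strand, 7 annotated transcripts, dm6) encodes the subunit that activates phospholipase C. It stood at 55.61, 40.76 and 51.71 FPKM in resistant adults, against 10.95, 5.22 and 9.87 FPKM in resistant larvae. Sensitive adults had 19.58, 18.50 and 15.63 FPKM, against 4.64, 8.54 and 5.31 FPKM in sensitive larvae. Adults and larvae did not overlap in either strain, and the resistant adults stood apart from all other libraries. The mean was 5.69-fold higher in adults of the resistant strain (log2 difference 2.42, SE 0.28, limma adjusted p = 2.96e-05). It was 2.90-fold higher in adults of the sensitive strain (log2 difference 1.43, SE 0.22, limma adjusted p = 0.000414).

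The beta subunit gene *Gbeta76C* (FBgn0004623, chr3L:19687637-19689992, plus strand, 1 annotated transcript) encodes the eye-enriched G beta protein. It stood at 147.45, 93.74 and 117.69 FPKM in resistant adults, against 0.17, 0.57 and 0.51 FPKM in resistant larvae. Its level in sensitive adults was 59.38, 62.58 and 60.74 FPKM, against 0.58, 0.36 and 0.35 FPKM in sensitive larvae. Its larval levels overlapped between the strains and rest on an estimated 22 reads over 3 libraries in either strain. The log2 difference between adults and larvae was 6.40 (SE 0.25, limma adjusted p = 3.41e-09) in the resistant strain and 5.44 (SE 0.15, limma adjusted p = 1.33e-08) in the sensitive strain.

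The gamma subunit gene *Ggamma30A* (chr2L:9256563-9302494, plus strand, 8 annotated transcripts) was the one member with a high larval level. It stood at 283.16, 177.91 and 194.30 FPKM in resistant adults, against 77.67, 83.46 and 98.15 FPKM in resistant larvae. In sensitive adults it stood at 149.11, 172.06 and 166.34 FPKM, against 43.40, 49.48 and 48.50 FPKM in sensitive larvae. The stage difference was the smallest ratio among the 10 in resistant animals, at 2.53-fold (log2 difference 1.3, SE 0.24, limma adjusted p = 0.00094). In sensitive animals the ratio was 3.45-fold (log2 difference 1.76, SE 0.14, limma adjusted p = 8.5e-06). Its annotated transcripts run from 849 to 12225 bases, and how reads were shared among them sets its FPKM.

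*norpA* (FBgn0262738, chrX:4322626-4365408, plus strand, 6 annotated transcripts), the phospholipase C of the cascade, was the lowest of the 10 in adults. It stood at 9.57, 9.15 and 8.49 FPKM in resistant adults, against 2.80, 1.08 and 1.78 FPKM in resistant larvae. Sensitive adults had 6.68, 3.57 and 3.22 FPKM, against 0.92, 1.25 and 0.78 FPKM in sensitive larvae. Adults and larvae did not overlap in either strain, and the first sensitive adult library lay closer to the resistant adults than to the other sensitive adults. The mean was 4.81-fold higher in adults of the resistant strain (log2 difference 1.84, SE 0.25, limma adjusted p = 0.000101) and 4.57-fold higher in adults of the sensitive strain (log2 difference 1.42, SE 0.25, limma adjusted p = 0.0009).

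*trp* (FBgn0003861, chr3R:29914521-29920289, minus strand) encodes the founding member of the TRP channel family and the main channel of the light response. It stood at 52.41, 34.92 and 56.41 FPKM in resistant adults, against 0.08, 0.12 and 0.16 FPKM in resistant larvae. The values were 36.42, 39.02 and 29.90 FPKM in sensitive adults, against 1.46, 0.52 and 0.25 FPKM in sensitive larvae. The adult groups overlapped, while every sensitive larva was above every resistant larva. The log2 difference between adults and larvae was 5.42 (SE 0.24, limma adjusted p = 9.46e-09) in the resistant strain and 4.42 (SE 0.26, limma adjusted p = 1.18e-06) in the sensitive strain.

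*trpl* (FBgn0005614, chr2R:9753697-9765518, plus strand), the second light-activated channel, stood at 33.81, 26.19 and 37.68 FPKM in resistant adults, against 0.24, 0.28 and 0.35 FPKM in resistant larvae. In sensitive adults it stood at 25.64, 21.92 and 19.26 FPKM, against 0.11, 0.11 and 0.05 FPKM in sensitive larvae. Here the larval order was the reverse of that of *trp*, with every resistant larva above every sensitive larva. The log2 difference was 4.69 (SE 0.22, limma adjusted p = 1.61e-08) in the resistant strain and 4.41 (SE 0.17, limma adjusted p = 9.18e-08) in the sensitive strain.

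*inaC* (FBgn0004784, chr2R:16898535-16901575, plus strand, 1 annotated transcript) encodes the eye protein kinase C. It stood at 20.46, 14.38 and 16.23 FPKM in resistant adults, against 0.21, 0.25 and 0.24 FPKM in resistant larvae. In sensitive adults it stood at 14.09, 12.12 and 10.69 FPKM, against 0.07, 0.22 and 0.00 FPKM in sensitive larvae, the last of which is listed at 0. The scaffold gene *inaD* (FBgn0001263, chr2R:22855688-22858794, minus strand) stood at 29.43, 24.58 and 27.21 FPKM in resistant adults, against 0.22, 0.14 and 0.36 FPKM in resistant larvae. In sensitive adults *inaD* stood at 19.35, 19.59 and 15.81 FPKM, against 0.11, 0.19 and 0.19 FPKM in sensitive larvae. Adults of both strains were far above larvae for both genes. For *inaC* the log2 difference was 3.86 (limma adjusted p = 5.44e-08) in the resistant and 3.60 (limma adjusted p = 3.77e-07) in the sensitive strain, and for *inaD* 4.50 (limma adjusted p = 1.38e-08) and 4.04 (limma adjusted p = 1.29e-07) in the same order of strains.

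The arrestin genes were the most abundant of the 10 in adults. *Arr1* (FBgn0000120, chr2L:18078269-18081307, plus strand) stood at 595.66, 443.20 and 384.24 FPKM in resistant adults, against 3.47, 3.61 and 5.20 FPKM in resistant larvae. Sensitive adults had 371.19, 533.25 and 524.42 FPKM, against 2.65, 3.13 and 4.15 FPKM in sensitive larvae. *Arr2* (FBgn0000121, chr3L:8647261-8648936, minus strand, 1 annotated transcript), the major arrestin of the rhabdomere, stood at 590.55, 433.39 and 546.65 FPKM in resistant adults, against 0.27, 0.38 and 0.27 FPKM in resistant larvae. In sensitive adults *Arr2* stood at 560.39, 687.69 and 699.62 FPKM, against 0.27, 0.39 and 0.56 FPKM in sensitive larvae. The adult levels of both arrestins overlapped between the strains. In every larval library *Arr1* was above *Arr2*, whereas in sensitive adults *Arr2* was the higher one and in resistant adults the pair overlapped. *Arr2* had the largest stage difference of the 10, with a log2 difference of 8.64 (SE 0.22, limma adjusted p = 2.2e-10) in the resistant and 8.85 (SE 0.15, limma adjusted p = 1.81e-09) in the sensitive strain. For *Arr1* the log2 difference was 6.54 (SE 0.24, limma adjusted p = 2.4e-09) in the resistant and 6.79 (SE 0.20, limma adjusted p = 1.77e-08) in the sensitive strain.

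All 10 genes were thus called higher in adults in both strains. Among all genes tested, 34.7% were called higher in resistant adults, 55.7% in sensitive adults and 28.3% in both. Adult and larval groups did not overlap, with adults higher, for 38.2% of the genes tested in the resistant and 59.4% in the sensitive strain. Of the 10, 6 passed the filter on low values in the resistant strain only through the adults, and 5 in the sensitive strain, so these had to differ and the count of calls adds nothing for them. The genes with at least 1 larval library at 1 FPKM or more were *Galphaq*, *Ggamma30A*, *norpA* and *Arr1*, and in the sensitive strain *trp* (1 library at 1.46 FPKM). Counted over all tested genes, *Arr2* ranked 51 of 12013 by log2 difference in the resistant strain, whereas *Ggamma30A* ranked 2118. Without scaling, the median of all tested genes was 0.28 on the log2 scale in the resistant and 0.62 in the sensitive strain. Median-of-ratios scaling moved it by -0.25 and -0.58, and all 10 calls stood after it. The share called higher was then 28.3% with 25% lower in the resistant strain, where it had been 17.4% lower, and 29% with 26% lower in the sensitive strain, where it had been 13.2% lower. *Galphaq* in the sensitive strain then had the smallest value, a log2 difference of 0.81 (limma adjusted p = 0.0115).

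The order of the 10 genes by level differed between adults and larvae. These are whole-body levels, so the order need not be that within photoreceptors. In resistant adults the means ran from *Arr2* at 523.53 FPKM and *Arr1* at 474.37 FPKM through *Ggamma30A* at 218.46, *Gbeta76C* at 119.63, *Galphaq* at 49.36, *trp* at 47.91, *trpl* at 32.56, *inaD* at 27.07 and *inaC* at 17.02 to *norpA* at 9.07 FPKM. Neighbours that overlapped between libraries were *Arr2* with *Arr1*, *Galphaq* with *trp*, *trp* with *trpl*, and *trpl* with *inaD*. In sensitive adults *Galphaq*, at 17.90 FPKM, came below *trp*, *trpl* and *inaD* and overlapped with *inaD*. In larvae of both strains *Ggamma30A*, *Galphaq*, *Arr1* and *norpA* led in that order, and the other 6 followed, most of them overlapping with their neighbours. *norpA* stood above all 6 in resistant larvae, whereas in sensitive larvae it averaged 0.98 FPKM and overlapped with *trp*. The 3 genes with the smallest stage differences in both strains, *Ggamma30A*, *norpA* and *Galphaq*, have 6 to 8 annotated transcripts each, and the other 7 have 1 to 3. That is a description of 10 genes.

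Of the members, 5 overlap another gene, and no source used here says whether reads were counted by strand. The overlapping *CG1690* (opposite strand of *trpl*) stood at 15.89 to 24.69 FPKM in resistant adults and at 6.89 to 9.17 FPKM in sensitive adults, without overlap, as for *trpl* itself. *RpL23* (opposite strand of *inaD*, sharing a few bases at its 3′ end) reached 5370.26 FPKM. *RpL23* stood at 2929.97 to 4970.30 FPKM in resistant larvae and at 3806.01 to 4034.06 FPKM in sensitive larvae, where *inaD* did not exceed 0.36 FPKM. *CG12693* (opposite strand of *norpA*) stood at 5.23 to 7.04 FPKM in resistant adults and at 2.34 to 3.62 FPKM in sensitive adults, without overlap, as for *norpA* itself. The part of *CG1690* in the values of *trpl*, and of *CG12693* in those of *norpA*, was not tested. *CG45086* (same strand, within *Galphaq*) did not exceed 3.15 FPKM and *Pex7* (opposite strand of *Arr2*) did not exceed 2.15 FPKM.

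The paralogs of the cascade that work outside the eye were not all called higher in adults. Of 13 such genes 12 were tested, with 2 called higher and 3 lower in adults of the resistant strain, and 6 higher and 2 lower in adults of the sensitive strain. Among all tested genes 34.7% were called higher and 17.4% lower in the resistant strain, and 55.7% and 13.2% in the sensitive strain. Of the 6 paralogs called higher in the sensitive strain, *Pkc53E* passed the filter only through the adults. Its call (0.71, limma adjusted p = 0.0182) was lost in 7 of 16 alternatives. With median-of-ratios scaling 2 rose and 5 fell in the resistant strain, and 2 rose and 3 fell in the sensitive strain. The shares of all tested genes were then 28.3% higher and 25% lower in the resistant strain, and 29% and 26% in the sensitive strain. *Gbeta5*, the G beta partner of RGS proteins, rose in adults by a log2 difference of 1.48 in the resistant (limma adjusted p = 0.000229) and 1.53 in the sensitive strain (limma adjusted p = 9.9e-05). *Galphas*, the alpha subunit that stimulates adenylyl cyclase, had log2 differences of -1.56 (limma adjusted p = 0.000716) and -1.24 (limma adjusted p = 0.000766) in the same order of strains. *Ggamma1*, the general gamma subunit, had log2 differences of -0.94 (limma adjusted p = 0.0207) in the resistant and -0.81 (limma adjusted p = 0.0106) in the sensitive strain. The resistant call on *Ggamma1* was lost without resistant larva replicate 1 (adjusted p = 0.0792) or replicate 3 (adjusted p = 0.0855). *krz*, the non-visual arrestin, was called higher in adults of the sensitive strain (log2 difference 1.4, limma adjusted p = 0.000206) and not of the resistant strain (0.37, limma adjusted p = 0.309). Without resistant adult replicate 3 the resistant value was 0.66 and called (adjusted p = 0.0242).

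Ratios within a library do not depend on how libraries are scaled. *Gbeta76C* stood at 2.38 to 4.75 times the general beta subunit gene *Gbeta13F* in resistant adults and at 2.22 to 3.22 times in sensitive adults. In larvae it stood at 0.0042 to 0.0295 times *Gbeta13F* in the resistant and at 0.0128 to 0.034 times in the sensitive strain. *Gbeta13F* itself stood at 24.77 to 39.38 FPKM in resistant adults and 18.87 to 26.74 FPKM in sensitive adults, against 19.30 to 40.50 FPKM in resistant and 17.08 to 28.06 FPKM in sensitive larvae. Per length, the eye form was the higher of this pair in each adult library and the general form in each larval library. The gamma pair did likewise with a smaller change. *Ggamma30A* stood at 1.82 to 2.34 times *Ggamma1* in resistant adults and 1.24 to 1.99 times in sensitive adults, against 0.342 to 0.645 times in resistant and 0.216 to 0.336 times in sensitive larvae. *Arr2* stood at 17.1 to 47.9 times *krz* in resistant adults and 22.4 to 36.4 times in sensitive adults, against 0.0174 to 0.0339 times in resistant and 0.0409 to 0.0846 times in sensitive larvae. *norpA* against the other phospholipase C beta gene, *Plc21C*, crossed only in resistant adults, at 1.27 to 1.77 times, whereas sensitive adults stood at 0.635 to 0.733 times, resistant larvae at 0.275 to 0.456 times and sensitive larvae at 0.316 to 0.363 times. The alpha subunit pairs varied. *Galphaq* stood above *Galphas* in each adult library and below it in each larval one. To *Galphai* its ratio was 0.888 to 2.07 in resistant and 0.437 to 0.605 in sensitive adults, and 0.179 to 0.416 over all larvae. To *Galphao* it was 8.37 to 12.5 in resistant and 2.25 to 5.11 in sensitive adults. In larvae the ratio to *Galphao* was 0.817 to 1.0 in the resistant and 1.29 to 2.07 in the sensitive strain.

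**Figure D2:**
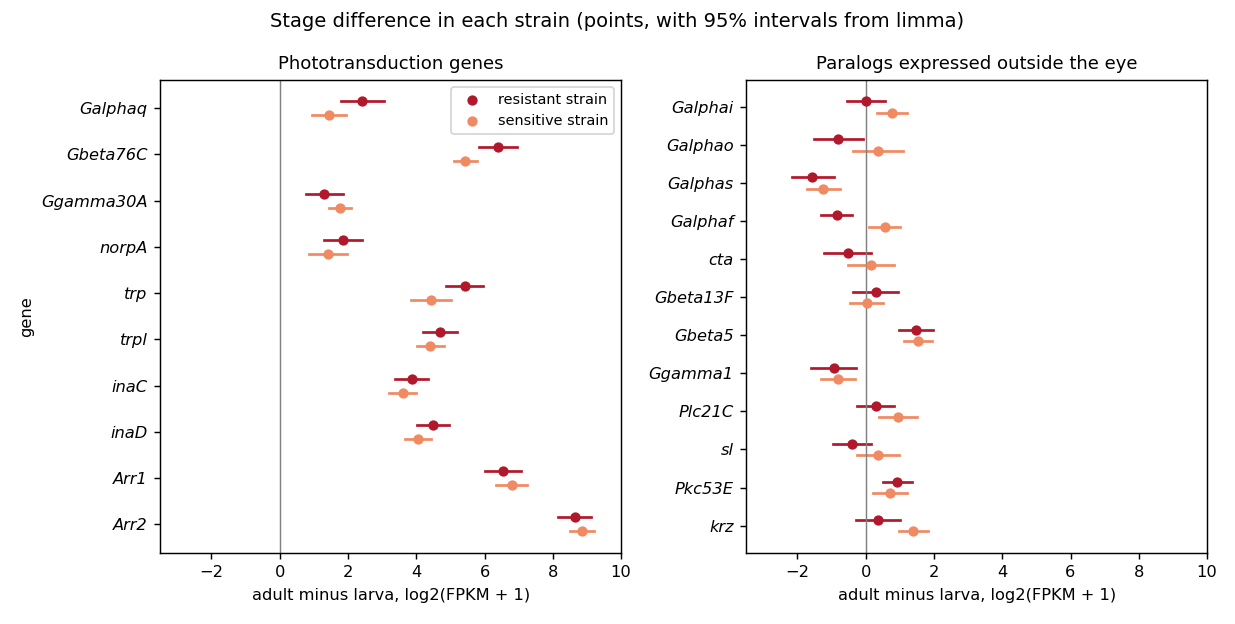
Difference between adults and larvae in log2(FPKM + 1) for the 10 phototransduction genes (left) and 12 tested paralogs (right), with points for the estimate and lines for its 95% interval from limma, for the resistant and the sensitive strain. Estimates for the 10 genes run from 1.3 to 8.85 and those for the paralogs from -1.56 to 1.53.

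Further genes of the fly visual system were grouped by their place in the response. The counts called in each list stand against shares of all tested genes. These were 34.7% higher and 17.4% lower in adults of the resistant strain, and 55.7% and 13.2% in those of the sensitive strain. All 6 tested rhodopsins were called higher in adults of both strains, among them *ninaE* with log2 differences of 9.69 in the resistant (limma adjusted p = 1.43e-10) and 9.06 in the sensitive strain (limma adjusted p = 1.81e-09). Of these, 4 passed the filter only through the adults in either strain (*ninaE*, *Rh2*, *Rh3* and *Rh4*) and had to differ. *Rh5* and *Rh6*, the Bolwig organ rhodopsins, had the smallest of the 6 log2 differences in the resistant strain, 3.05 and 3.07. In larvae *Rh6* stood at 2.14, 3.61 and 4.95 FPKM in the resistant and at 2.07, 1.53 and 2.99 FPKM in the sensitive strain, above every larval value of *ninaE*, *Rh3* and *Rh4*. *Rh7* stayed below 1 FPKM in all 12 libraries and was not tested.

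Rhodopsin maturation and chromophore genes gave 5 higher and 2 lower of 9 tested in the resistant strain, and 5 higher and 0 lower of 8 in the sensitive strain. *ninaA*, the cyclophilin that escorts rhodopsin from the endoplasmic reticulum, led with log2 differences of 4.70 (limma adjusted p = 5.31e-08) and 3.89 (limma adjusted p = 1.52e-06). *Xport-A* and *Xport-B*, chaperones of TRP and rhodopsin, followed with 3.40 and 3.58 in the resistant and 3.22 and 3.38 in the sensitive strain. Both had the same FPKM in every larval library and in resistant adult replicate 1 (13.64 FPKM), so they are not separate measurements. *ninaA*, *Xport-A* and *Xport-B* were among 5 of the 9 genes in the resistant and 4 of the 8 in the sensitive strain that passed the filter only through the adults. Their calls add nothing to the levels.

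Genes of the signalling complex, calcium handling and shut-off gave 5 higher and 1 lower of 10 in the resistant strain, and 6 higher and 1 lower of 9 in the sensitive strain, where 3 and 4 passed the filter only through the adults. *ninaC*, the rhabdomeral myosin III, had log2 differences of 5.52 (limma adjusted p = 3.69e-09) and 4.87 (limma adjusted p = 6.5e-08). *rtp*, which encodes the retinophilin that anchors this myosin, had 5.08 (limma adjusted p = 1.86e-08) and 4.82 (limma adjusted p = 2.64e-07). *inaF-B*, needed for TRP function, had 2.82 (limma adjusted p = 1.38e-06) and 2.62 (limma adjusted p = 8.47e-06).

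The phosphoinositide cycle, which regenerates the substrate of *norpA*, depended on scaling in its counts. It gave 5 higher and 1 lower of 10 in the resistant strain and 9 higher and 0 lower of 10 in the sensitive strain. With median-of-ratios scaling 4 rose and 2 fell in the resistant strain and 3 rose and 0 fell in the sensitive strain. Of all tested genes, 28.3% were then called higher in the resistant and 29% in the sensitive strain, near the shares of this list. *rdgB*, the phosphatidylinositol transfer protein of photoreceptors, had log2 differences of 1.45 (limma adjusted p = 0.000385) in the resistant and 1.69 (limma adjusted p = 3.08e-05) in the sensitive strain. *PI4KIIIalpha*, a phosphatidylinositol kinase, had 1.47 (limma adjusted p = 0.000231) and 1.74 (limma adjusted p = 8.01e-06). The largest called difference of this list in the resistant strain was a fall in adults, that of *Pld*. It had -1.49 (limma adjusted p = 0.000591), and -1.74 after median-of-ratios scaling (limma adjusted p = 9.03e-05).

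Rhabdomere structure and histamine signalling had medians of 1.82 and 1.22 in the resistant strain and 1.53 and 1.38 in the sensitive strain. Of 3 tested rhabdomere genes 2 were called higher in either strain, namely *chp*, which encodes the photoreceptor surface protein chaoptin (log2 difference 4.03 in the resistant and 3.26 in the sensitive strain), and *prom*, prominin (1.82 and 1.53). Of photoreceptor transcription factors, *Pph13*, a homeodomain regulator of phototransduction genes, was called higher in both strains, by 1.48 (limma adjusted p = 4.81e-05) and 1.83 (limma adjusted p = 8.48e-06). The early eye factor *toy* had a log2 difference of -1.28 (limma adjusted p = 0.00143) in the resistant strain. The photoreceptor transcription factor *gl* had -0.66 in the same strain (limma adjusted p = 0.0103). That call was lost without resistant adult replicate 1 (limma adjusted p = 0.0513) or replicate 2 (0.0737). Histamine signalling, the transmitter system of photoreceptors, had 5 of 6 tested genes called higher in either strain, with the synthetic enzyme *Hdc* at 2.50 and 2.16. In either strain *Pph13*, 2 of the 3 rhabdomere genes and 4 of the 6 histamine genes passed the filter only through the adults. Their calls add nothing to the levels. Eye pigment genes gave 2 higher and 2 lower of 5 in the resistant, and 2 higher and 1 lower of 5 in the sensitive strain.

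**Figure D3:**
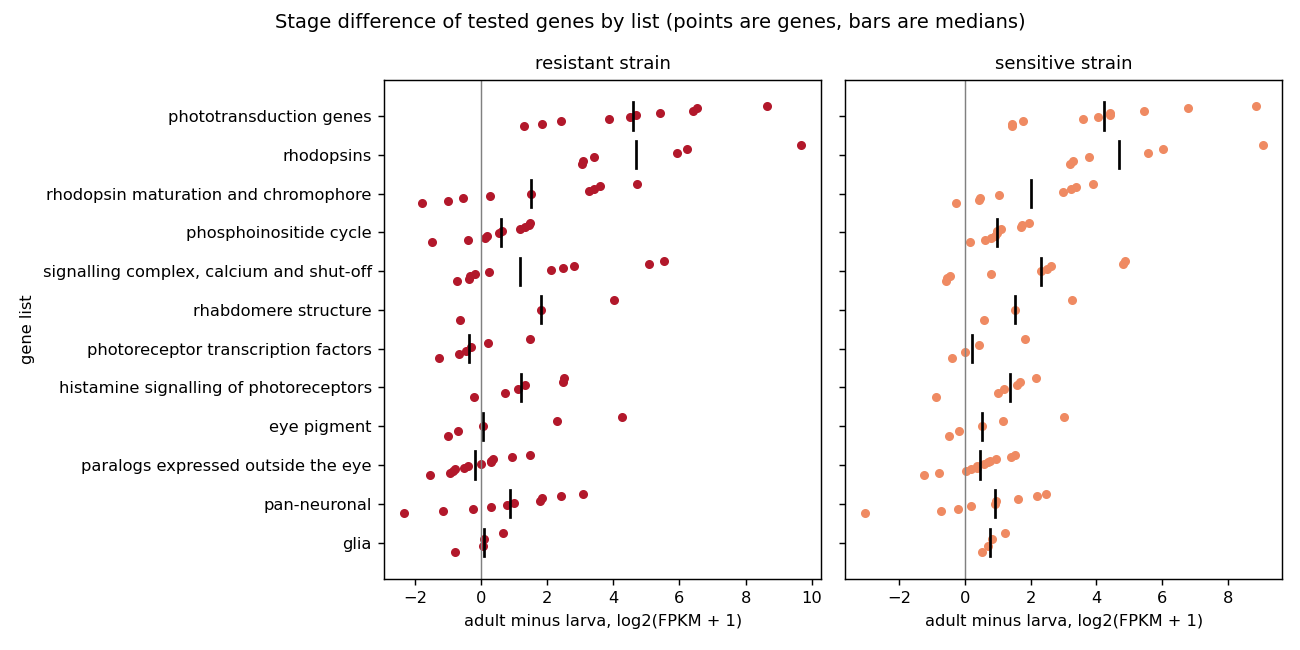
Difference between adults and larvae in log2(FPKM + 1) of the tested genes of 12 lists, with 1 point per gene and a bar at each list's median, for the resistant strain (left) and the sensitive strain (right). The phototransduction genes and the rhodopsins have medians of 4.6 and 4.68 in the resistant strain, and genes that passed the filter only through adults are among them.

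Genes with other sites of expression also rose in adults, so an adult rise was not particular to the visual lists. In the resistant strain 34.7% of all tested genes were called higher in adults and 17.4% lower. Pan-neuronal genes gave 6 higher and 2 lower of 10 in the resistant strain, with *Gad1* (GABA synthesis) at a log2 difference of 3.08 (limma adjusted p = 6.39e-07) and *Syt1* (vesicle calcium sensor) at -2.33 (limma adjusted p = 2.27e-05). Of these 10, 2 passed the filter only through the adults. All 3 yolk protein genes and all 4 flight muscle genes rose in the resistant strain, where 2 and 3 of them passed the filter only through the adults. Likeness to the mean pattern of the 10 members, taken as Pearson's r of log2(FPKM + 1) over the 12 libraries, exceeded 0.9 in 1583 of 11623 genes. The most alike were *Rh3* and *ninaC* at 0.999 and *pkm*, *CG32457* and *Acsx2* at 0.998. The libraries fall into a high adult and a low larval cluster, so r mainly records that contrast, and no test is attached.

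Between the strains, the largest differences in adults were those of *Galphaq*, *Gbeta76C* and *norpA*. *Galphaq*, *Gbeta76C* and *norpA* were called higher in resistant adults, 3 of the 10 genes, where 15.9% of all tested genes were called higher and 3.95% lower (10.6% and 4.41% with median-of-ratios scaling). *Galphaq* had the largest difference, at a mean of 49.36 FPKM in resistant adults against 17.90 FPKM in sensitive adults, a ratio of 2.76 (log2 difference 1.41, 95% interval 0.91 to 1.90, limma adjusted p = 0.00553). It was called in all 20 alternatives, among them median-of-ratios scaling (log2 difference 1.27, limma adjusted p = 0.00894).

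The calls on the other pair were less firm. *Gbeta76C* averaged 119.63 FPKM in resistant adults against 60.90 FPKM in sensitive adults, a ratio of 1.96 (log2 difference 0.94, 95% interval 0.45 to 1.43, limma adjusted p = 0.0173). *norpA* averaged 9.07 FPKM in resistant adults against 4.49 FPKM in sensitive adults, a ratio of 2.02 (log2 difference 0.93, 95% interval 0.33 to 1.52, limma adjusted p = 0.0351). After median-of-ratios scaling, which moved the median of all genes by -0.13, neither was called (limma adjusted p = 0.058 for *Gbeta76C* and 0.0503 for *norpA*). The call on *Gbeta76C* was also lost without resistant adult replicate 1 (adjusted p = 0.0993), sensitive adult replicate 2 (0.0595) or sensitive adult replicate 3 (0.0661). That on *norpA* was lost without resistant adult replicate 1 (adjusted p = 0.136), resistant adult replicate 2 (0.068), sensitive adult replicate 2 (0.14) or sensitive adult replicate 3 (0.158).

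For the channels, kinase and scaffold the estimates were smaller, and none passed the threshold, although *inaD* did in 1 fit of all 12 libraries (0.55, limma adjusted p = 0.0323). The log2 difference was 0.42 for *trp* (95% interval -0.13 to 0.96, limma adjusted p = 0.332), 0.52 for *trpl* (0.00 to 1.04, limma adjusted p = 0.168), 0.43 for *inaC* (-0.09 to 0.95, limma adjusted p = 0.278) and 0.55 for *inaD* (0.07 to 1.02, limma adjusted p = 0.112). *Ggamma30A* had 0.40 (-0.13 to 0.92, limma adjusted p = 0.342). Of these 5, all but *trp* were higher in every resistant adult than in any sensitive adult. Groups did not overlap in that direction for 7 of the 10 members, against 23.6% of all tested genes. The arrestins had estimates at or below 0, of -0.01 for *Arr1* (-0.59 to 0.56, limma adjusted p = 0.988) and -0.31 for *Arr2* (-0.83 to 0.20, limma adjusted p = 0.484), and their groups overlapped.

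**Figure D4:**
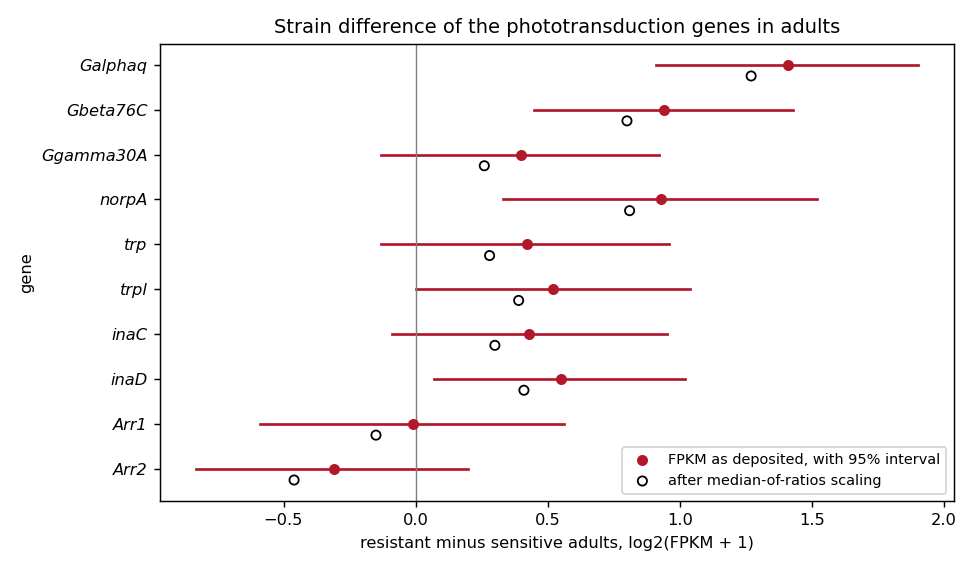
Difference between resistant and sensitive adults in log2(FPKM + 1) for the 10 genes, with filled points and lines for the estimate and 95% interval on the deposited FPKM and open points for the estimate after median-of-ratios scaling. *Galphaq* has the largest value at 1.41, and the arrestins lie at -0.01 and -0.31.

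Ratios to *ninaE* in the same library stood apart between the strains for *Galphaq* and *Gbeta76C*, and overlapped for the third G protein subunit, *Ggamma30A*, and for the arrestins. The ratio of *Galphaq* to *ninaE* was 0.0595 ± 0.00267 in resistant adults and 0.0225 ± 0.00153 in sensitive adults (SD, n = 3 each, exact permutation p = 0.1, the smallest that 3 against 3 allow). For *Gbeta76C* the ratio was 0.143 ± 0.00656 in resistant adults and 0.0773 ± 0.0107 in sensitive adults, and for *norpA* 0.0112 ± 0.00235 and 0.0055 ± 0.00158 in the same order. Ratios to *ninaE* of 7 members (these 3, *trp*, *trpl*, *inaC* and *inaD*) were higher in every resistant adult than in any sensitive adult, as were those of 20.9% of all tested genes. The ratio of *Arr2* to *ninaE* was 0.631 ± 0.0285 in resistant adults and 0.831 ± 0.192 in sensitive adults. The 10 ratios share *ninaE* as denominator and are not independent.

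Ratios between members were also taken, which made 16 ratios in all. *Galphaq* to *Gbeta76C* was 0.417 ± 0.0347 in resistant adults and 0.294 ± 0.0362 in sensitive adults, and every resistant adult was above every sensitive one. *Ggamma30A* to *Gbeta76C* was 1.82 ± 0.149 in resistant adults and 2.67 ± 0.135 in sensitive adults, and every resistant adult was below every sensitive one. The 2 subunit ratios thus did not overlap, whereas *trp* to *trpl* (1.46 ± 0.113 and 1.58 ± 0.182), *inaC* to *inaD* (0.626 ± 0.0606 and 0.674 ± 0.0548) and *Arr1* to *Arr2* (0.911 ± 0.181 and 0.729 ± 0.0592) did, resistant adults given before sensitive adults. None of the 16 could pass 0.05 at this number of libraries.

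**Figure D5:**
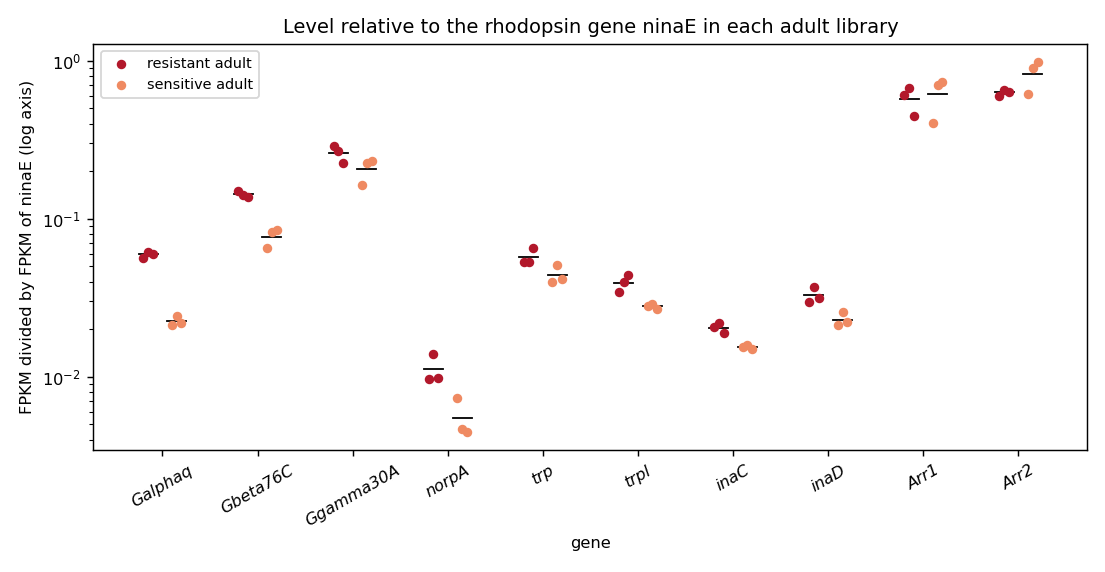
FPKM of each of the 10 genes divided by that of *ninaE* in the same adult library (log axis), with points for libraries and bars for means over 3 libraries, resistant adults left of sensitive adults. *Galphaq* stands at 0.0566 to 0.0618 in resistant adults and 0.0214 to 0.0243 in sensitive adults, while the arrestins overlap.

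Other gene groups moved with strain in adults. Summed rhodopsin levels overlapped, at 851.2 to 1240 FPKM in resistant adults and 910.8 to 1088 FPKM in sensitive adults, and 1 of 6 tested rhodopsins was called. This was *Rh3*, the ultraviolet rhodopsin of inner photoreceptors, with a log2 difference of 0.68 (limma adjusted p = 0.0436), which was not called after median-of-ratios scaling (limma adjusted p = 0.144), after upper-quartile scaling (0.0753), with no filter (0.0513), or without resistant adult replicate 1 (0.222), sensitive adult replicate 2 (0.172) or sensitive adult replicate 3 (0.186). In the other visual lists *ninaC* (0.78, limma adjusted p = 0.0338), *chp* (1.24, 0.0171), *e* (2.61, 0.00113) and *se* (1.49, 0.00982) were called higher in resistant adults. The pigment gene *v* was called lower (-1.11, limma adjusted p = 0.0187). After median-of-ratios scaling *ninaC* lost its call (limma adjusted p = 0.0878) and the others kept theirs. Without resistant adult replicate 1 *ninaC* (0.169), *chp* (0.0718) and *se* (0.0568) were not called. Pan-neuronal genes were called higher in resistant adults for 7 of 10 tested, where 15.9% of all tested genes were. After median-of-ratios scaling 4 were called, against 10.6% of all tested genes. The pan-neuronal sums were 71.03 to 110.9 FPKM in resistant and 39.21 to 66.85 FPKM in sensitive adults. Among the 7 were *Snap25* (1.15, limma adjusted p = 0.0105), *Gad1* (1.20, limma adjusted p = 0.0197) and *ChAT* (1.08, limma adjusted p = 0.0142). Each lost its call without resistant adult replicate 1 (adjusted p = 0.0604, 0.0793 and 0.0688 in that order). *Gad1* and *ChAT* also lost theirs without sensitive adult replicate 2 (adjusted p = 0.0714 and 0.0504) or replicate 3 (0.0832 and 0.0501). *Galphaq* and *norpA* are also used by neurons outside the eye. The part of neuronal RNA in their values was not tested.

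The adult groups also differed in markers of sex and stage. Yolk protein genes, which mark females, summed to 5553 to 9324 FPKM in resistant adults and 13270 to 14890 FPKM in sensitive adults. Testis and accessory gland genes summed to 933.1 to 1417 FPKM in resistant adults and 319.5 to 649.5 FPKM in sensitive adults. Larval serum and fat body genes summed to 235 to 382.1 FPKM in resistant adults and 77.66 to 95.94 FPKM in sensitive adults. All 3 sums were without overlap, and their part in the strain differences of the cascade was not tested. None of the 12 tested paralogs was called between adult strains with limma (2 had an unadjusted p under 0.05), nor after median-of-ratios scaling (1 did), and *Gbeta13F* had the largest estimate, 0.60 (limma adjusted p = 0.152).

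In larvae 4 of the 10 genes could be tested between the strains. *Ggamma30A* was called higher in resistant larvae, where 48.8% of all tested genes were, at a mean of 86.43 FPKM in resistant larvae against 47.13 FPKM in sensitive larvae, a ratio of 1.83 (log2 difference 0.86, SE 0.17, limma adjusted p = 0.00237). Median-of-ratios scaling moved the median of all genes by -0.47, took the shares called to 11% higher and 19.2% lower (9.84% lower without it), and left *Ggamma30A* at 0.30 (limma adjusted p = 0.263). *norpA* had a log2 difference of 0.50 (limma adjusted p = 0.0806), *Galphaq* 0.42 (limma adjusted p = 0.224) and *Arr1* 0.24 (limma adjusted p = 0.327), with overlapping groups. Without resistant larva replicate 2, *norpA* (0.72, adjusted p = 0.0203) and *Galphaq* (0.71, adjusted p = 0.0279) were called. Under median-of-ratios scaling the estimates of *Galphaq* and *Arr1* were -0.08 and -0.21.

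The larval libraries held few reads of the other 6 genes. *trp* rests on an estimated 18 reads over the 3 resistant larval libraries and 110 over the 3 sensitive ones, of which 72 fell in sensitive larva replicate 1. *trpl* rests on about 40 and 12 reads in the same order of strains. Of all genes tested in larvae, 54.1% were without overlap and higher in resistant larvae, and 11.1% were without overlap and lower. Without the filter *trpl* was called higher in resistant larvae (log2 difference 0.24, limma adjusted p = 0.0291) and *trp* was not called (-0.58, limma adjusted p = 0.0635). The remaining 4 rest on 8 to 22 reads per group and overlapped between the strains. Of 61 other genes in the visual lists, 26 were higher in every resistant larva than in any sensitive larva and 3 were lower. Among the higher ones was *ninaC*, at 0.20 to 0.27 FPKM in resistant larvae against 0.11 to 0.14 FPKM in sensitive larvae. Some genes at high levels in adults went the way of *trp*, and 3 of them are given here, chosen after their values were seen. *ninaE* was listed at 0 in the resistant larvae, against 0.38 to 0.60 FPKM in sensitive larvae. *Yp3* stood at 4.62 to 6.70 FPKM in resistant larvae, against 104.70 to 148.34 FPKM in sensitive larvae, and *Act88F*, the flight muscle actin, at 0.06 to 0.32 FPKM against 1.10 to 1.92 FPKM. Other genes at high adult levels did not follow. Lower without overlap in resistant larvae were 1 of 7 rhodopsins, 3 of 3 yolk protein genes and 3 of 4 flight muscle genes. Of 7 testis and accessory gland genes 0 were lower and 3 were higher, and 1 rhodopsin was higher. The relation of all these genes to the larval values of *trp* was not tested.

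The difference between the strains in the stage effect was tested over all 12 libraries. *Gbeta76C* was the one member called, with a stage difference larger by 0.96 in the resistant strain (SE 0.29, limma adjusted p = 0.0238), where 9.98% of all tested genes were called in that direction and 19.7% in the other (15.7% and 7.82% with median-of-ratios scaling). The call was lost without resistant adult replicate 1 (adjusted p = 0.0733), resistant larva replicate 1 (0.0665) or sensitive larva replicate 1 (0.0566), and with a pseudocount of 0.1 (1.07, adjusted p = 0.0884). It stood after median-of-ratios scaling (1.02, limma adjusted p = 0.0317). *trp* had 1.0 (SE 0.36, limma adjusted p = 0.0501) and *Galphaq* 0.99 (SE 0.37, limma adjusted p = 0.0574). With a pseudocount of 0.1, which gives low larval values more weight, *trp* was called at 2.11 (limma adjusted p = 0.0197). It was also called at a mean of at least 5 FPKM (adjusted p = 0.0465) and without resistant adult replicate 2 (1.20, adjusted p = 0.0166) or sensitive larva replicate 3 (1.21, adjusted p = 0.0385). *Galphaq* was called after median-of-ratios scaling, with 1.37 (limma adjusted p = 0.0186), after upper-quartile scaling (1.3, adjusted p = 0.0266), and without resistant adult replicate 2 (adjusted p = 0.035) or resistant larva replicate 1 (adjusted p = 0.0482). The other 7 had estimates between -0.46 for *Ggamma30A* and 0.46 for *inaD*, with adjusted p from 0.158 to 0.558 by limma. Of the paralogs *Galphaf* and *krz* were called in the opposite direction, at -1.41 (limma adjusted p = 0.00254) and -1.03 (limma adjusted p = 0.0465). The call on *krz* was lost after scaling (adjusted p = 0.115) and without each library other than resistant adult replicate 2 and sensitive larva replicate 2 (highest adjusted p = 0.107).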

How the data were processed

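Whole-body total RNA was taken up in TRIzol and BGISEQ-500 libraries were read, per the labels' protocols. The authors deposited a single FPKM table, rounded to 2 decimals. Tools in the submitters' processing notes are RSEM 1.3.3, edgeR 3.12, FastQC 0.11.9 and STAR, with dm6 as the build; no settings are given, nor how reads were shared between transcripts. Gene names and coordinates came from an Ensembl annotation of dm6, which matched 13777 of 14001 identifiers.

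Depth was estimated from genes with 1 annotated transcript, where 87.9 to 93.6% of low values lay within 0.2 of a whole read, against 40% by chance. Replicates differed by more than sampling noise (chi-square over its degrees of freedom, 8.31 to 103.03). No library was left out. FPKM depends on estimated transcript lengths, so no count test was run.

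Groups follow the labels. Pairwise comparisons used the 6 libraries they compare, and the difference of the stage effect used 12, with limma 3.58.1 in R 4.3.3 (mean-variance trend, robust, two-sided) on log2(FPKM + 1). Genes with at least 3 libraries at 1 FPKM or more were kept. The p-values were adjusted by Benjamini-Hochberg, and 0.05 was the threshold. Alternatives were median-of-ratios and upper-quartile scaling, no filter, a mean of at least 5 FPKM, a pseudocount of 0.1, a replicate block, 1 fit of all 12 libraries, a threshold of 0.01, and each library left out. Leaving a library out with the tested genes held fixed was added after seeing the data. The steps were tested on simulated data.

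The members and the 16 other lists were chosen with earlier results of these data known. Named genes are all members, any paralog or rhodopsin, up to 3 genes per other list and comparison with the largest called differences and no overlap, and the 5 genes most alike to the members. Genes of overlapping loci, and genes named for the level of their group, were named after their values were seen. A planned search of promoter motifs was not run. Figures used Python 3.11.15 and matplotlib 3.10.9.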

Additional observations from a re-analysis of the deposited data

Results flagged for a closer look

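*Gbeta76C* differed between the strains in its stage effect by the test of that difference, with 0.96 on the log2(FPKM + 1) scale (limma adjusted p = 0.0238). It averaged 119.63 FPKM in resistant adults and 60.90 FPKM in sensitive adults, against 0.42 FPKM in resistant larvae and 0.43 FPKM in sensitive larvae.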

How the results depend on the processing

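The stage calls on all 10 genes in both strains stood under every setting in which the genes were tested. Leaving out a library lowered the number called to between 4 and 10 in the resistant and between 5 and 10 in the sensitive strain because genes that pass the filter only through adults were no longer tested, and with the tested genes held fixed all 10 were called each time. Called members between adult strains numbered 3, against 1 after median-of-ratios scaling, 1 at a threshold of 0.01, 4 in 1 fit of all 12 libraries (*inaD* as well), and 1 to 3 with a library left out. Between larval strains 1 was called, against 0 after median-of-ratios scaling (0 at an unadjusted p under 0.05 by limma), 2 without the filter, and 1 to 3 with a library left out. For the difference of the stage effect 1 was called, against 2 after either scaling or at a mean of at least 5 FPKM, 0 at a threshold of 0.01, and 0 to 3 with a library left out.

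Directions that turned were all of differences that were not called, and the cause was not tested. For the difference of the stage effect, *Arr1* was 0.08 after median-of-ratios and 0.03 after upper-quartile scaling, and with a pseudocount of 0.1 *trpl* was -0.51 and *inaC* -0.46. Between adult strains *Arr1* ranged over -0.19 to 0.13 with a library left out, and was 0.03, 0.07, 0.08 or 0.13 where it turned. Between larval strains *Galphaq* was -0.08 and *Arr1* -0.21 after median-of-ratios scaling, and *Arr1* was -0.05 after upper-quartile scaling.

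Replicate numbers share no stated source. Deviations of same-numbered libraries correlated at -0.283 to 0.555, and in 8 of 18 settings of a library against the 3 of another group the own number gave the highest correlation. Every same-number pair was over 0.1 only between sensitive adults and resistant larvae (0.2 to 0.555). These groups are not compared as a pair here, though both enter the difference of the stage effect. The numbers were not taken as pairs, and a replicate block was fitted as an alternative. With the replicate block the members called were 10, 10, 1, 3 and 1 in the resistant stage, sensitive stage, difference, adult and larval comparisons, and 0 of 44 member calls changed, while *Rh3* lost its call between adult strains (adjusted p = 0.0995). Over all genes, calls between adult strains numbered 2309, against 497 to 2282 with a library left out. Depth limits the larval values of the 6 genes with 8 to 110 estimated reads per group.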

Other observations

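Over the 6 adult libraries alone, the members differed in how closely they followed their own mean pattern. Pearson's r of log2(FPKM + 1) with that mean, which includes each member itself, was 0.829 for *norpA*, 0.984 for *Gbeta76C* and between these for *trp*, *trpl*, *Galphaq*, *Ggamma30A*, *inaC* and *inaD*. It was 0.125 for *Arr1* and -0.411 for *Arr2*. Outside the members, 528 of 11491 genes exceeded 0.9, and the most alike were *pre-lola-G* at 0.996, *CG14830* at 0.99, *CG42536* at 0.987, *Sidpn* at 0.986 and *tfc* at 0.984. *CG14830* averaged 31.84 FPKM in resistant adults and 18.52 FPKM in sensitive adults, against 20.96 FPKM in resistant larvae and 12.12 FPKM in sensitive larvae. *tfc* averaged 8.51 FPKM in resistant adults and 2.52 FPKM in sensitive adults, against 8.08 FPKM in resistant larvae and 15.73 FPKM in sensitive larvae. The 6 libraries share the strain contrast and library depth, so these values are descriptions with no test, and these 5 genes were not near 0 in larvae.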
